A study of Mus musculus with 9 samples.

Results

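Ciliogenesis regulators are the genes that switch a columnar airway cell to building many motile cilia. The account covers 6 of them, Foxj1, Foxn4, Rfx2, Rfx3, Myb and Ccno, in cells sorted from the mouse trachea. They were chosen by name, and every probe set annotated to 1 of them alone was taken, which gave 12 of 45101 probe sets and 6 of 18193 measured genes. All 6 genes were present: Foxj1, Foxn4 and Ccno had 1 probe set each, Rfx3 had 2, Myb had 3 and Rfx2 had 4. The mice were hemizygous for KRT5-GFP, a transgene that makes green fluorescent protein from a keratin 5 promoter, and each of the 3 sorted gates had 3 biological replicates, 9 arrays in all. The first gate held GFP+ cells that bound the lectin GSI-A3B (the GFP+ gate), and the second held GFP- cells that bound the lectin (the lectin-only gate). The labels call both of these basal cells. The third gate held GFP- cells that did not bind the lectin (the columnar gate), which the labels name columnar epithelium. All 3 gates came from mice carrying the same transgene, GFP reports the transgene's promoter and not keratin 5 itself, and the sources used here give no age, no sex and nothing on pooling of animals.

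In airway multiciliated cells, differentiation begins with release from Notch signalling and the action of the geminin relatives Gmnc and Mcidas with E2F factors, which switch on genes for centriole amplification and a set of downstream transcription factors. Foxj1, a forkhead factor, and the RFX factors then drive genes of the moving axoneme, intraflagellar transport and basal body docking. Myb acts early in this programme in mouse airway epithelium, and Ccno, cyclin O, is no DNA-binding factor but is needed to make the many centrioles from which the cilia grow. Foxn4, another forkhead factor, acts with Foxj1 in multiciliated cells of the Xenopus epidermis.

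The gates were first described by markers. The basal marker Krt5 had log2 signals between 13.42 and 13.44 in GFP+ cells, between 12.72 and 13.02 in lectin-only cells and between 6.71 and 8.88 in columnar cells. As GFP reports a keratin 5 promoter, Krt5 is no independent check of the sort. Over 7 basal markers, the mean per array was 12.01 to 12.08 in GFP+ cells, 11.11 to 11.30 in lectin-only cells and 7.57 to 8.44 in columnar cells. Krt15, 1 of these, differed little, with means of 13.72, 13.74 and 13.27 in the same order. Of 6 measured ciliated cell markers, Foxj1 among them, the mean log2 signal per array was 5.57 to 6.14 in GFP+ cells, 6.51 to 7.02 in lectin-only cells and 8.04 to 8.36 in columnar cells. The remaining ones, Dnah5, Tekt1, Rsph1, Tppp3 and Ccdc39, also belong to the list of axoneme genes below, which is therefore no separate check. All 10 leukocyte markers were higher in the lectin-only gate than in the columnar gate, with means per array of 6.63 to 8.19 in GFP+ cells, 10.44 to 11.20 in lectin-only cells and 5.30 to 6.15 in columnar cells. The lectin-only gate, labelled basal, thus held signal of leukocyte markers beside basal ones. The club cell marker Scgb1a1 lay between 13.49 and 13.88 on all 9 arrays. The median log2 signal was 4.91 to 5.16 on 8 arrays and 5.44 on replicate 3 of the lectin-only gate, which stood apart: 77.1% of its probe sets lay above the background level, against 68.3% to 69.9% on the others. The background level, 3.33, was set from olfactory and vomeronasal receptor genes, taken to be silent in the trachea.

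Between the GFP+ gate and the columnar gate, 2 of the 6 regulators were lower in the GFP+ gate, Foxj1 and Foxn4. A gene was called where the limma adjusted p over all genes was under 0.05 and the log2 difference was at least 1, that is 2-fold. By that rule 5.33% of all genes were lower in the GFP+ gate and 5.88% higher, and 0 regulators were called higher. Between the lectin-only gate and the columnar gate, Foxj1 and Foxn4 were again the 2 called lower, against 2.38% of all genes lower and 6.47% higher. Between the GFP+ gate and the lectin-only gate, Foxj1 was the 1 regulator called lower, against 2.84% of all genes lower and 0.896% higher. No regulator was called higher in either of these comparisons. At an unadjusted p under 0.05 in limma, 2, 3 and 2 regulators were lower in the 3 comparisons in this order, and 0 were higher. No share of all genes at that unadjusted limit is given, here or for the gene lists below, so such counts have no comparison beside them. The median difference over the 6 regulators was -0.59, -0.56 and -0.29 in the same order, beside -0.04, 0.07 and -0.10 over all genes. When each array was centred on its own median, the median over all genes in the comparison of the lectin-only gate with the columnar gate moved to -0.17, and no call of a regulator changed. The centring also shifted the split over all genes, to 714 lower and 968 higher in lectin-only against columnar cells (433 and 1177 as deposited) and to 455 lower and 259 higher in GFP+ against lectin-only cells (517 and 163 as deposited). The comparisons share arrays: the columnar arrays enter the first 2, and each lectin-binding gate enters 2 of the 3. RNA came from sorted populations, so fewer cells of a type and less RNA per cell cannot be told apart.

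**Figure D1:**
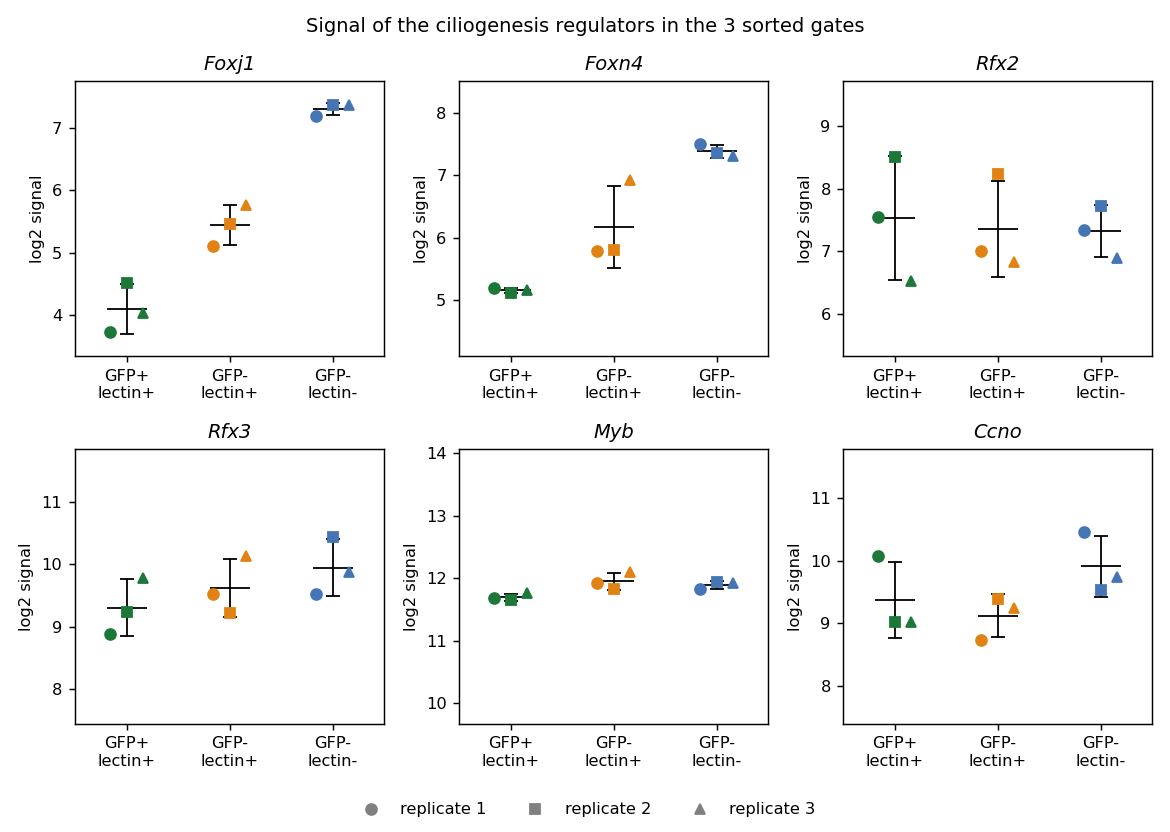
Log2 signal of each regulator's brightest probe set on each array, with the GFP+ lectin+ gate left, the GFP- lectin+ gate in the middle and the GFP- lectin- gate right; symbols mark replicates, bars the mean and SD over 3 arrays, and the axes do not start at 0. The arrays of Foxj1 and Foxn4 do not overlap between gates, while those of Rfx2 and Rfx3 overlap in each comparison. Foxn4 was not called between the GFP+ lectin+ and GFP- lectin+ gates.

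Foxj1, the forkhead factor required for motile cilia, showed the widest spread between gates of the 6 regulators. Its log2 signals were 3.72, 4.52 and 4.03 in GFP+ cells, 5.11, 5.46 and 5.75 in lectin-only cells and 7.18, 7.36 and 7.36 in columnar cells. No array of 1 gate reached into the range of another, and all 9 lay above the background level. The share of all genes whose arrays separate in this way is not given, here or for the genes below. The GFP+ signals of Foxj1 were near the background level of 3.33 and under the median signal of their arrays, 4.97 to 5.07. Fold values that involve the GFP+ gate rest on these low signals. The mean was 4.09 ± 0.40 in GFP+ cells, 5.44 ± 0.32 in lectin-only cells and 7.30 ± 0.10 in columnar cells (SD, n = 3 each). The GFP+ gate was 9.24-fold lower than the columnar gate (log2 difference -3.21 ± 0.24 SE, 95% interval -3.75 to -2.67, limma adjusted p = 4.05e-05). A larger decrease was seen for 0.781% of all genes in that comparison. The lectin-only gate was 3.62-fold lower than the columnar gate (log2 difference -1.86 ± 0.24 SE, 95% interval -2.40 to -1.31, limma adjusted p = 0.00116). Foxj1 thus lay between the other 2 gates in the lectin-only cells. The GFP+ gate was 2.55-fold lower than the lectin-only gate (log2 difference -1.35 ± 0.24 SE, 95% interval -1.89 to -0.81, limma adjusted p = 0.0144). This last call was lost without GFP+ replicate 1 (-1.17, limma adjusted p = 0.0585) and without GFP+ replicate 3 (-1.32, limma adjusted p = 0.0510), while both differences from the columnar gate kept their call in all 18 alternative settings.

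Foxn4, the forkhead factor known for multiciliated cells in Xenopus, had the same order of gates. Its log2 signals were 5.20, 5.12 and 5.16 in GFP+ cells, 5.79, 5.80 and 6.93 in lectin-only cells and 7.50, 7.35 and 7.31 in columnar cells. The 3 gates did not overlap, although replicate 3 of the lectin-only gate lay nearer to the columnar arrays than to its own partners. The mean was 5.16 ± 0.04 in GFP+ cells, 6.17 ± 0.66 in lectin-only cells and 7.39 ± 0.10 in columnar cells (SD, n = 3 each). The GFP+ gate was 4.68-fold lower than the columnar gate (log2 difference -2.23 ± 0.29 SE, 95% interval -2.87 to -1.58, limma adjusted p = 0.000689), and this call held in all 18 alternative settings. The lectin-only gate was 2.32-fold lower than the columnar gate (log2 difference -1.21 ± 0.29 SE, 95% interval -1.86 to -0.57, limma adjusted p = 0.0244). That call rested on few arrays. It was lost without lectin-only replicate 1 (-1.02, limma adjusted p = 0.0880) or 2 (-1.03, adjusted p = 0.0759), and without columnar replicate 1 (-1.16, adjusted p = 0.0806), 2 (-1.23, adjusted p = 0.0641) or 3 (-1.25, adjusted p = 0.0609). It was stronger without lectin-only replicate 3, the array that stood apart (-1.59, limma adjusted p = 0.000828). Between the GFP+ gate and the lectin-only gate Foxn4 was not called (log2 difference -1.01 ± 0.29 SE, 95% interval -1.66 to -0.37, limma adjusted p = 0.0940).

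The promoter stretch before the Foxn4 start is shown because Foxn4 is 1 of the 2 regulators that differed between gates and the other, Foxj1, has no entry in the table used. It is taken from RefSeq on GRCm38.p6, minus strand, and covers the 250 bases before the start, chr5:114273762-114274011. Capitals mark AACNG, the core that MYB proteins bind, searched on both strands, with N standing for any base.
Foxn4 promoter: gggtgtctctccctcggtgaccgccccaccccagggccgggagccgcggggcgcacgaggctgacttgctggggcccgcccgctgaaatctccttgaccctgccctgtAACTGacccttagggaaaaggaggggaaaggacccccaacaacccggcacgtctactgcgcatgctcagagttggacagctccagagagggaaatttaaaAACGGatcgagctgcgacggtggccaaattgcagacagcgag
Its 2 cores start at positions -142 and -42, counting the start base as 0, and 80.3% of all mouse promoter windows hold such a core.

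Rfx2 and Rfx3 encode RFX factors, which bind the X-box sequence in front of many cilia genes. The brightest probe set of Rfx2 had log2 signals of 7.55, 8.51 and 6.53 in GFP+ cells, 7.00, 8.24 and 6.83 in lectin-only cells and 7.35, 7.72 and 6.89 in columnar cells. All 3 gates overlapped, and replicate 2 was the highest and replicate 3 the lowest array within each gate. The mean was 7.53 ± 0.99 in GFP+ cells, 7.36 ± 0.77 in lectin-only cells and 7.32 ± 0.42 in columnar cells (SD, n = 3 each). The difference of the GFP+ gate from the columnar gate was 0.21 ± 0.52 (SE), with a 95% interval of -0.95 to 1.37 and a limma adjusted p of 0.871. That interval, from the fit without pairing, takes in a 2-fold rise. With a replicate block the difference was 0.21 ± 0.26 (SE, limma adjusted p = 0.696), a smaller SE and still no call. The lectin-only gate differed from the columnar gate by 0.04 ± 0.52 (SE, limma adjusted p = 0.983), and the GFP+ gate from the lectin-only gate by 0.17 ± 0.52 (SE, limma adjusted p = 0.935). The other 3 probe sets of Rfx2 were dim, with 1433416_at under the background level on all arrays of the GFP+ and columnar gates. Their Pearson r with the brightest probe set over the 9 arrays was 0.21, -0.21 and -0.09, and 0 of the 3 was called in any comparison. The dim probe set 1433416_at lay at 2.68, 2.95 and 4.18 in the lectin-only gate, above every GFP+ and every columnar array, with 2 of the 3 arrays still under background.

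Rfx3 had log2 signals of 8.89, 9.24 and 9.79 in GFP+ cells, 9.53, 9.22 and 10.13 in lectin-only cells and 9.53, 10.44 and 9.87 in columnar cells on its brightest probe set. The means were in the same order as those of Foxj1 and Foxn4, but the arrays of all 3 gates overlapped. They were 9.30 ± 0.45 in GFP+ cells, 9.62 ± 0.46 in lectin-only cells and 9.95 ± 0.46 in columnar cells (SD, n = 3 each). The GFP+ gate differed from the columnar gate by -0.64 ± 0.33 (SE), with a 95% interval of -1.39 to 0.10 and a limma adjusted p of 0.274. The lectin-only gate differed from the columnar gate by -0.32 ± 0.33 (SE, limma adjusted p = 0.667), and the GFP+ gate from the lectin-only gate by -0.32 ± 0.33 (SE, limma adjusted p = 0.753). No neighbours in the order of Rfx3 levels therefore differed beyond their spread. The second probe set, 1425413_at, had 4.35, 3.98 and 4.32 in GFP+ cells, 3.92 to 4.68 in lectin-only cells and 4.19, 5.11 and 5.12 in columnar cells. It too was not called, at -0.59 ± 0.30 (SE) for the GFP+ gate and -0.60 ± 0.30 (SE) for the lectin-only gate against the columnar gate.

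Both RFX genes and Ccno held 1 copy of GTTGCC, a half-site of the X-box that RFX factors contact, within the window of 250 bases before to 50 bases after the start. Stretches of 30 bases around it are shown, from RefSeq on GRCm38.p6, with the half-site in capitals. They lie at chr17:56831107-56831136 on the minus strand (Rfx2), chr19:28011118-28011147 on the minus strand (Rfx3) and chr13:112987571-112987600 on the plus strand (Ccno).
Rfx2: agcttggtaaccGTTGCCgggcgcaacgcc
Rfx3: gttatagcaaccGTTGCCttgtgaatcaag
Ccno: acccgggctgcgGTTGCCacggtgacgaca
Counting the start base as 0, the half-site begins at -116 in Rfx2, at 31 in Rfx3 and at -219 in Ccno. On either strand it occurs in 12.5% of 32851 mouse promoter windows of the same length. Foxn4 and Myb had 0 matches in this window.

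Myb, known in mouse airway for an early role in multiciliated cells and in blood for its role in progenitors, showed small differences between gates. Its brightest probe set had log2 signals of 11.68, 11.65 and 11.76 in GFP+ cells, 11.93, 11.82 and 12.10 in lectin-only cells and 11.82, 11.94 and 11.93 in columnar cells. The GFP+ arrays were the lowest and overlapped with neither of the other gates, lying 0.06 below the nearest lectin-only array and 0.07 below the nearest columnar one. These gaps were small, and with 3 arrays per gate such a separation alone is no call. The mean was 11.69 ± 0.05 in GFP+ cells, 11.95 ± 0.14 in lectin-only cells and 11.90 ± 0.06 in columnar cells (SD, n = 3 each). The GFP+ gate differed from the columnar gate by -0.20 ± 0.15 (SE), with a 95% interval of -0.55 to 0.14 and a limma adjusted p of 0.494, an interval that leaves out a 2-fold change. It differed from the lectin-only gate by -0.25 ± 0.15 (SE, limma adjusted p = 0.517), and the lectin-only gate from the columnar gate by 0.05 ± 0.15 (SE, limma adjusted p = 0.905). By its name this probe set, 1421317_x_at, belongs to a class whose probes can also match other transcripts. The other 2 probe sets followed it over the 9 arrays with a Pearson r of 0.78 and 0.86, and were not called either. Probe set 1450194_a_at had 9.62, 9.39 and 9.78 in GFP+ cells, 9.96, 9.90 and 10.06 in lectin-only cells and 9.84, 9.81 and 10.02 in columnar cells. Beside the leukocyte markers in the lectin-only gate, markers of blood progenitors and red cells were mostly dim: of 6 measured, 3 lay under background on all GFP+ arrays, 3 on all lectin-only arrays and 2 on all columnar arrays. Their mean log2 signal per array was 3.94 to 4.09 in GFP+ cells, 4.20 to 4.33 in lectin-only cells and 3.52 to 3.66 in columnar cells, and their part in the Myb signal was not tested. Kit, a receptor of blood progenitors among them, was higher than in the columnar gate by 3.39 ± 0.26 in the GFP+ gate and 2.43 ± 0.26 in the lectin-only gate (SE, limma adjusted p = 4.49e-05 and 0.000416), and Cd34 by 1.39 ± 0.37 in the lectin-only gate (SE, limma adjusted p = 0.0397). In the GFP+ gate Kit was the 1 of the 6 called, beside 5.88% of all genes called higher. Of the 6, 4 lay below 0, and the median of the 6 was -0.18. In the lectin-only gate Kit and Cd34 were the 2 called, beside 6.47% of all genes called higher. Of the 6, 2 lay below 0, and the median of the 6 was 0.21.

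Ccno, the cyclin needed for centriole amplification, had log2 signals of 10.07, 9.02 and 9.02 in GFP+ cells, 8.72, 9.38 and 9.25 in lectin-only cells and 10.45, 9.53 and 9.74 in columnar cells. The GFP+ arrays overlapped with both other gates, and the lectin-only arrays all lay below the columnar ones, by 0.15 at the nearest. The mean was 9.37 ± 0.61 in GFP+ cells, 9.12 ± 0.35 in lectin-only cells and 9.91 ± 0.48 in columnar cells (SD, n = 3 each). The lectin-only gate differed from the columnar gate by -0.79 ± 0.35 (SE), with a 95% interval of -1.57 to -0.01, and this missed the threshold after adjustment (limma unadjusted p = 0.0481, adjusted p = 0.224). The GFP+ gate differed from the columnar gate by -0.54 ± 0.35 (SE, 95% interval -1.32 to 0.25, limma adjusted p = 0.408). It differed from the lectin-only gate by 0.25 ± 0.35 (SE, limma adjusted p = 0.824). The lectin-only mean was the lowest of the 3, where for Foxj1 and Foxn4 it lay in the middle, and this difference in order was not tested. Replicate 1 was the highest Ccno array in the GFP+ gate and in the columnar gate.

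**Figure D2:**
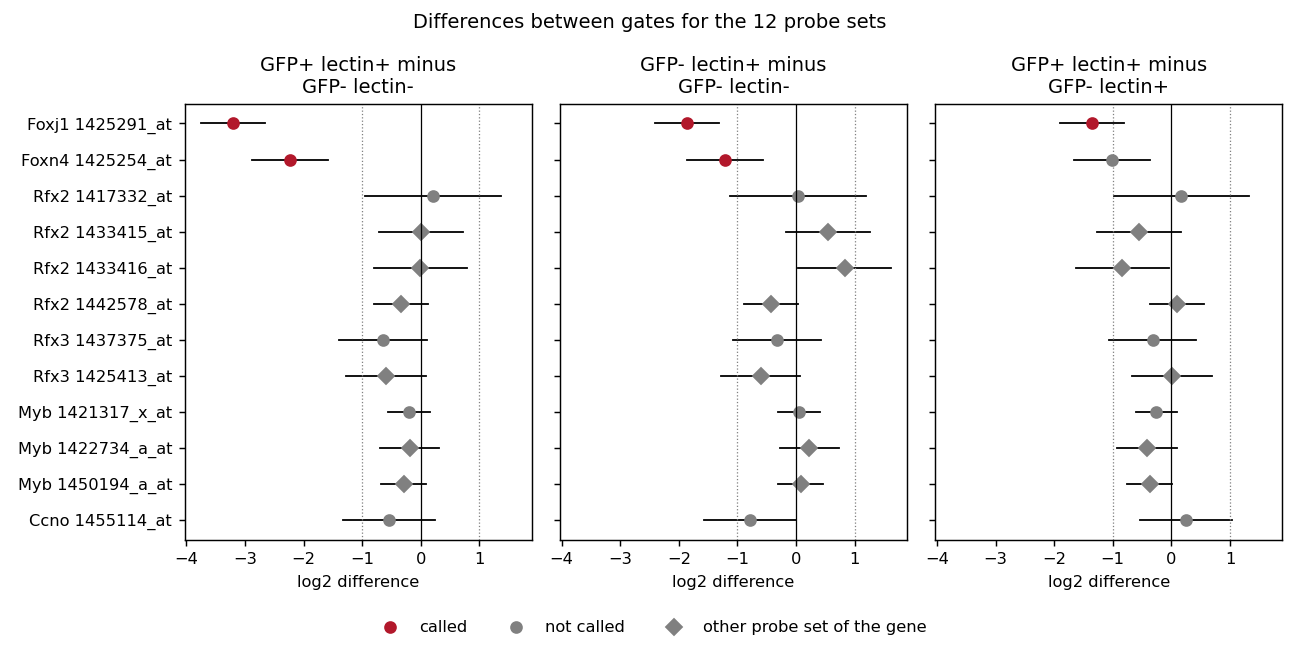
Log2 difference of each of the 12 probe sets in the 3 comparisons, with 95% intervals from the fit over all probe sets; red circles are called, grey symbols are not, diamonds are the dimmer probe sets of a gene, and dotted lines mark a 2-fold change. Only the probe sets of Foxj1 and Foxn4 are called, Foxj1 in all 3 panels and Foxn4 in the first 2.

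Taken probe set by probe set, in a fit over all 45037 non-control probe sets, 2, 2 and 1 of the 12 were called, all lower, in the GFP+ against columnar, lectin-only against columnar and GFP+ against lectin-only comparisons. Of all probe sets, 7.00%, 5.08% and 1.63% were called in either direction in the same order. The genes with several probe sets were Rfx2, Rfx3 and Myb, and 0 of their 9 probe sets was called in any comparison, so the choice of probe set decided no call among the regulators.

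Other motifs were counted in the same promoter windows of the 5 regulators in the table. The MYB core AACNG was found 2 times in Foxn4, 4 times in Rfx2, 4 times in Rfx3, and 1 time each in Myb and Ccno. In Rfx2, Rfx3 and Ccno at least 1 of these matches shares bases with the RFX half-site, whose first letters, GTT, read AAC on the other strand. The forkhead motif GTAAACA, present in 3.65% of windows, was found 1 time, in Myb, starting 33 bases after the start. The E2F motif GCGGGA, present in 20.0% of windows, was found 2 times in Ccno, 2 times in Rfx2, 1 time in Myb and not in Foxn4 or Rfx3.

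Of the genes upstream of the regulators, 1 was called, Gmnn, lower than in the columnar gate in both lectin-binding gates. Of all genes, 5.33% were lower in the GFP+ gate and 2.38% in the lectin-only gate. Of 8 listed, 6 were measured, without Gmnc and Mcidas, for which no probe set carried the symbol. Gmnn, geminin, which opposes Gmnc and Mcidas and restrains DNA replication, had log2 signals of 8.28, 9.28 and 8.29 in GFP+ cells, 8.72, 9.48 and 8.97 in lectin-only cells and 10.34, 10.63 and 10.80 in columnar cells. Both lectin-binding gates lay below every columnar array. Gmnn was 3.93-fold lower in the GFP+ gate (log2 difference -1.97 ± 0.31 SE, limma adjusted p = 0.00211) and 2.88-fold lower in the lectin-only gate (log2 difference -1.53 ± 0.31 SE, limma adjusted p = 0.0110) than in the columnar gate. Trp73, a p53 relative that acts on Foxj1 in multiciliated cells, had 5.73, 6.56 and 5.83 in GFP+ cells, 4.26, 5.39 and 5.30 in lectin-only cells and 5.55, 6.25 and 6.04 in columnar cells. It was below both other gates on all lectin-only arrays without a call, at -0.97 ± 0.35 (SE, limma adjusted p = 0.132) against the columnar gate. Between the GFP+ gate and the lectin-only gate 0 of the 6 were called, and 2 had an unadjusted limma p under 0.05. The median difference over the 6 was 0.13, -0.07 and 0.09 in the 3 comparisons.

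Among relatives of the regulators in the same families (RFX, Foxj, Foxn and Myb genes, without Rfx6), 0 of 12 measured were called lower in any comparison. Mybl2, a Myb relative of dividing cells, had 4.82, 5.32 and 5.29 in GFP+ cells, 5.34, 5.98 and 6.21 in lectin-only cells and 3.74, 4.24 and 3.90 in columnar cells. It was higher than in the columnar gate both in the GFP+ gate (log2 difference 1.18 ± 0.26 SE, limma adjusted p = 0.0139) and in the lectin-only gate (1.88 ± 0.26 SE, limma adjusted p = 0.00164). It was the 1 relative called higher in each of these 2 comparisons, beside 5.88% and 6.47% of all genes. In the first the count was 0 without GFP+ replicate 2, GFP+ replicate 3 or columnar replicate 1. The count was 2 without lectin-only replicate 2 or columnar replicate 2, with eBayes with trend and robust settings and with array weights. Foxn3 stood 0.88 ± 0.14 (SE, limma adjusted p = 0.00268) above the columnar gate in the GFP+ gate, under the 2-fold limit. In the 3 comparisons 6, 5 and 1 of the 12 relatives had an unadjusted limma p under 0.05, with no share of all genes beside it. Their median difference was 0.39, 0.31 and 0.05.

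Of 22 measured genes of centriole amplification, the step Ccno serves (without Ccdc78), 2 were lower in the GFP+ gate and 2 in the lectin-only gate than in the columnar gate, beside 5.33% and 2.38% of all genes. In the GFP+ gate 1 was lower than in the lectin-only gate, beside 2.84% of all genes, and 0 were higher in any comparison. Deup1, the core protein of the deuterosome on which centrioles are made, had 3.16, 4.70 and 5.41 in GFP+ cells, 6.52, 6.79 and 7.18 in lectin-only cells and 7.75, 8.22 and 8.13 in columnar cells. Its arrays followed the order of Foxj1, with no overlap between gates and 1 GFP+ array under background. It was lower in the GFP+ gate than in the columnar gate by a log2 difference of -3.61 ± 0.48 (SE, limma adjusted p = 0.000844) and than in the lectin-only gate by -2.41 ± 0.48 (SE, limma adjusted p = 0.0233). Cetn4, a centrin, was lower than in the columnar gate by -2.03 ± 0.32 in the GFP+ gate and -1.58 ± 0.32 in the lectin-only gate (SE, limma adjusted p = 0.00239 and 0.0121). Cep97, a centriole cap protein that restrains cilium growth, was called lower in the lectin-only gate, at -1.12 ± 0.26 (SE, limma adjusted p = 0.0208) against the columnar gate and -0.59 ± 0.26 (SE, limma adjusted p = 0.186) for the GFP+ gate. The difference between those gates for Cep97 was not called (0.53 ± 0.26 SE, limma adjusted p = 0.385). The medians of the list were -0.04, 0.02 and -0.04 in the 3 comparisons. The count in the lectin-only gate ranged from 0 to 3 over the alternatives: it was 0 with the mean over all probe sets of a gene, 1 without lectin-only replicate 2 or 3 or columnar replicate 2 or 3, and 3 without GFP+ replicate 1. The Deup1 call between the lectin-binding gates was lost without any 1 of the lectin-only arrays and with the 6 arrays of those gates alone.

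Genes of the axoneme, the moving core of the cilium that Foxj1 drives, had more members called lower in both comparisons with the columnar gate than any of the other 6 lists of the pathway. Of 29 measured, 24 were lower in the GFP+ gate than in the columnar gate, beside 5.33% of all genes. In the lectin-only gate 22 were lower, beside 2.38%, and 0 were higher in either comparison. The median log2 difference was -2.93 in the GFP+ gate and -1.99 in the lectin-only gate, beside -0.04 and 0.07 over all genes. The highest member, chosen after its value was seen, was Dnah11, an outer dynein arm heavy chain, at 1.26 ± 0.38 (SE, limma adjusted p = 0.0539) in the GFP+ gate. The count of higher genes there was 1 with further quantile normalization, the filter on dim genes or the mean over all probe sets. It was also 1 with eBayes with trend and robust settings, array weights or a replicate block. Without lectin-only replicate 2 or columnar replicate 3 it was 1 as well. With genes under background on all arrays of a gate set to the background level there, the median in the GFP+ gate became -2.82. Dynlrb2, a dynein light chain, was lower in the GFP+ gate by -4.56 ± 0.75, Spag6l, a central pair protein, by -4.36 ± 0.61, Ak7, a ciliary adenylate kinase, by -4.36 ± 0.44, and Rsph4a, a radial spoke protein, by -4.29 ± 0.73 (SE, limma adjusted p between 0.000181 and 0.00341). Of the 3 GFP+ arrays, 1 lay under background for Spag6l and 1 for Rsph4a. In the lectin-only gate Dnah9, an outer dynein arm heavy chain, was lower by -3.28 ± 0.60, Drc1, a dynein regulatory complex protein, by -3.08 ± 0.37 and Rsph4a by -2.85 ± 0.73 (SE, limma adjusted p between 0.000712 and 0.0352). Hydin, a central pair protein, lay under background on all 3 lectin-only arrays and was at least 5.29-fold lower there (limma adjusted p = 0.000109). Between the GFP+ gate and the lectin-only gate 27 of the 29 lay below 0, with a median of -0.74, and 2 were called lower, Meig1 at -1.32 ± 0.20 and Rsph1 at -1.25 ± 0.25 (SE, limma adjusted p = 0.00720 and 0.0246). That count was 7 with a replicate block, the highest of the alternatives. It was 1 without GFP+ replicate 1 or lectin-only replicate 2 or 3, with array weights and with the 6 arrays of those gates alone, and 4 without GFP+ replicate 3 or lectin-only replicate 1 and with the mean over all probe sets. The mean log2 signal of the list per array was 5.06 to 5.72 in GFP+ cells, 5.98 to 6.69 in lectin-only cells and 7.84 to 8.29 in columnar cells.

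**Figure D3:**
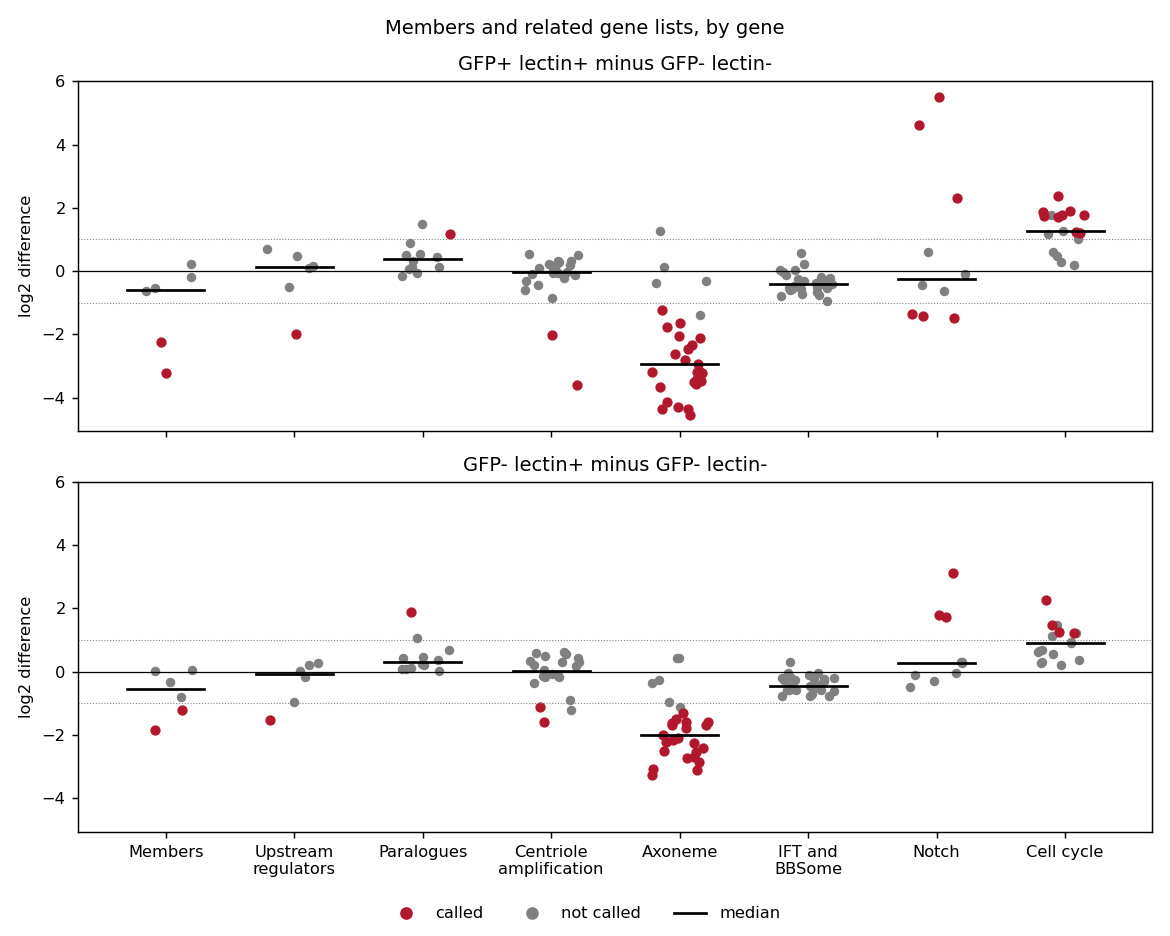
Log2 difference of each gene of the regulators and 7 related lists, GFP+ lectin+ minus GFP- lectin- above and GFP- lectin+ minus GFP- lectin- below; red points are called, grey points are not, and black lines mark medians. Axoneme genes lie lowest, with medians of -2.93 and -1.99, and genes of intraflagellar transport and the BBSome lie within 1 log2 unit of 0.

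Genes of intraflagellar transport and the BBSome, which RFX factors serve and which non-motile cilia need too, gave 0 calls out of 27 in all 3 comparisons. Their median was -0.40 in the GFP+ gate and -0.44 in the lectin-only gate against the columnar gate, with 23 and 26 of 27 below 0 and 10 in each comparison at an unadjusted limma p under 0.05. Ift172 had an adjusted p under the threshold in both (-0.75 ± 0.17 SE, limma adjusted p = 0.0153 in the GFP+ gate, and -0.69 ± 0.17 SE, limma adjusted p = 0.0283 in the lectin-only gate), but under 2-fold. Between the GFP+ gate and the lectin-only gate the median was -0.00 and 0 of 27 passed even unadjusted. With arrays centred on their medians 1 was called lower in the GFP+ gate and 3 in the lectin-only gate. Without columnar replicate 2 the first count was also 1, and without lectin-only replicate 3 the second was 1.

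Of 10 Notch pathway genes, the signal that holds back multiciliated fate, 3 were higher and 3 lower in GFP+ cells than in columnar cells. Of all genes, 5.88% were higher and 5.33% lower. The ligands Jag2 and Dll1 stood higher by 5.50 ± 0.22 and 4.61 ± 0.26 and the receptor Notch1 by 2.31 ± 0.20, while the receptor Notch3 was lower (-1.49 ± 0.39 SE, limma adjusted p between 1.42e-06 and 0.0300). Heyl and Nrarp were also lower, by -1.42 ± 0.30 and -1.34 ± 0.36 (SE, limma adjusted p = 0.0109 and 0.0331). Notch2, Jag1, Hes1 and Hey1 were not called. The count of lower genes was 1 without GFP+ replicate 1, lectin-only replicate 1 or any 1 of the columnar arrays, with the mean over all probe sets and with the 6 arrays of those gates alone. Lectin-only cells had Jag2, Notch1 and Dll1 higher than columnar cells, by 3.12 ± 0.22, 1.79 ± 0.20 and 1.73 ± 0.26 (SE, limma adjusted p between 6.14e-05 and 0.00247), with 0 of the 10 lower. Of all genes, 6.47% were higher and 2.38% lower there. The median of the Notch list was -0.26 in GFP+ cells and 0.29 in lectin-only cells against columnar cells, and that of the cell cycle list was 1.28 and 0.92. Of 17 measured cell cycle genes, 9 were higher in GFP+ than in columnar cells, beside 5.88% of all genes. The count was 5 without GFP+ replicate 2, GFP+ replicate 3 or columnar replicate 3. In lectin-only cells 4 were higher, beside 6.47% of all genes, and 0 were lower in either comparison. The lectin-only count ranged from 1 with the mean over all probe sets to 6 with a replicate block or without columnar replicate 2, and was 2 with arrays centred and without lectin-only replicate 1 or 2 or columnar replicate 1. In GFP+ against lectin-only cells 0 of the 17 were called and 0 had an unadjusted limma p under 0.05, while 2 of the 10 Notch genes were higher and 1 was lower (0 to 2 lower over the alternatives). Of all genes, 0.896% were higher and 2.84% lower there. Cenpf, a kinetochore protein, was higher than in columnar cells by 2.36 ± 0.43 in GFP+ cells and 2.25 ± 0.43 in lectin-only cells (SE, limma adjusted p = 0.00486 and 0.00824).

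**Figure D4:**
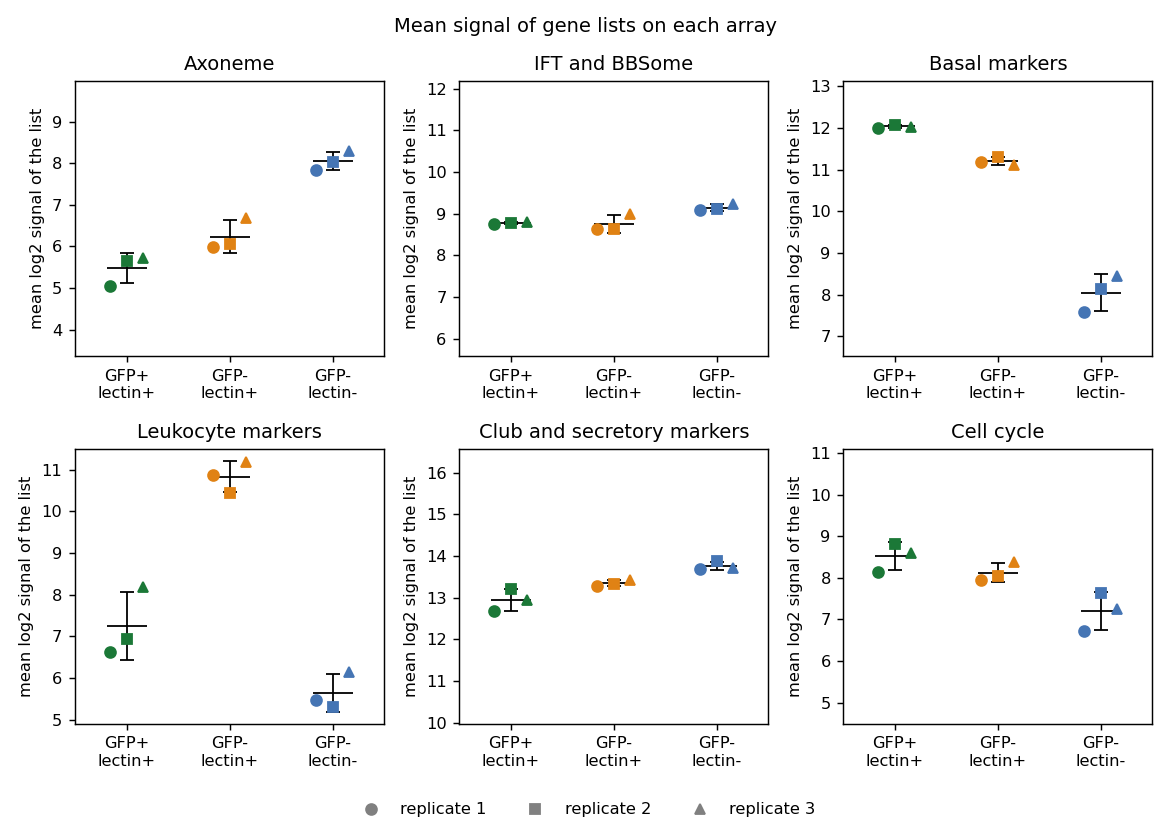
Mean log2 signal of 6 gene lists on each array, gates in the order GFP+ lectin+, GFP- lectin+ and GFP- lectin-; symbols mark replicates, bars the mean and SD over 3 arrays, and the axes do not start at 0. Axoneme genes rank the gates as Foxj1 does, while leukocyte markers are highest in the GFP- lectin+ gate.

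Leukocyte markers were highest in the lectin-only gate and lowest in the columnar gate, while Foxj1 and Foxn4 were highest in the columnar gate. The share of leukocyte RNA in the lectin-only values of the 6 regulators was not tested. Club and secretory markers ranked the gates in the order of Foxj1 on the mean, at 12.67 to 13.21 in GFP+ cells, 13.29 to 13.42 in lectin-only cells and 13.69 to 13.88 in columnar cells, with 1 of 6 called, Muc5b, in each comparison. Muc5b, a gel-forming mucin of secretory cells, was lower than in the columnar gate by -3.64 ± 0.42 in the GFP+ gate and -1.73 ± 0.42 in the lectin-only gate (SE, limma adjusted p = 0.000356 and 0.0263). In the GFP+ gate it was also lower than in the lectin-only gate, by -1.90 ± 0.42 (SE, limma adjusted p = 0.0352). Its part in the regulators' differences was not tested. Tppp3, a tubulin-binding protein counted among ciliated markers, was not called in any comparison, at 11.48 ± 0.52 in GFP+ cells, 11.79 ± 0.61 in lectin-only cells and 11.34 ± 0.07 in columnar cells (SD, n = 3 each). Markers of other cells moved too. Against the columnar gate, the GFP+ gate had 5 of 10 leukocyte markers higher, 2 of 4 brush cell markers lower, 1 of 3 neuroendocrine markers lower, 3 of 5 fibroblast markers lower and 1 higher, and 1 of 5 lymphocyte markers higher. The lectin-only gate had 0 of the brush and neuroendocrine markers called, 1 fibroblast marker higher and 3 lymphocyte markers higher. In the GFP+ gate, against the lectin-only gate, all 10 leukocyte markers were lower, with a median log2 difference of -3.48, and 2 of 4 brush cell, 2 of 5 lymphocyte and 3 of 5 fibroblast markers were lower, with 1 fibroblast marker higher and 0 of 3 neuroendocrine markers called. The part of these markers' cells in the regulators' differences was not tested. Beside the counts of this paragraph, 5.33% of all genes were lower and 5.88% higher in GFP+ against columnar cells. The shares were 2.38% and 6.47% in lectin-only against columnar cells, and 2.84% and 0.896% in GFP+ against lectin-only cells.

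The genes whose signal followed each regulator most closely were sought over the 9 arrays in the 3 gates, among 3472 or 3473 genes whose gate means span at least 1 log2 unit. All 9 points share their gates, and the values are a description. Foxj1 was closest to Slc38a1 (Pearson r = 0.997), Itih2 (0.996) and Fcgbp (0.995). Slc38a1, a glutamine transporter, had 9.35, 9.77 and 9.47 in GFP+ cells, 10.44, 10.48 and 10.83 in lectin-only cells and 11.90, 12.11 and 11.99 in columnar cells. Like Foxj1, it stood at 3 separate levels. Foxn4 was closest to Bmpr1b, a BMP receptor (0.990), Epsti1 (0.988) and AI467606 (0.987), and its r with Foxj1 was 0.96. Rfx3 was closest to Hap1 (0.965), Mmp23 (0.956) and Med9os (0.935). Myb was closest to Sh3kbp1 (0.980), Alox5ap (0.955), a leukotriene pathway gene listed among brush cell markers, and Gm20383 (0.953). Alox5ap had means of 6.10 in GFP+ cells, 9.03 in lectin-only cells and 8.68 in columnar cells. With arrays centred on their medians, all the genes closest to Myb changed. Ccno and Rfx2, whose replicates spread within gates, had looser neighbours, Pnmal2 (0.889), Tg (0.873) and Atp10d (0.872) for Ccno and Zfp949 (0.776), Kif20a (0.741) and Slc8b1 (0.669) for Rfx2. Among the 6 regulators themselves, r with Foxj1 was 0.63 for Rfx3, 0.58 for Myb, 0.41 for Ccno and -0.07 for Rfx2.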

How the data were processed

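The authors deposited log2 signals per probe set for 9 arrays, which they had processed with RMA, per the submitters' processing notes. The version of the software is not given in the sources used here. RNA was extracted from sorted cells with a column kit and amplified before labelling, per the labels' protocols. The platform annotation paired 34945 probe sets with 1 symbol, 932 with several and 9160 with none; 34741 symbols were updated through RefSeq, and the 64 control probe sets were left out. For a gene with several probe sets, the one of highest mean over the arrays was used. Gate means were fitted to all 9 arrays with limma 3.58.1 in R 4.3.3 (lmFit, eBayes without trend), with 6 residual and 3.46 prior degrees of freedom, and p-values were adjusted over all genes by the Benjamini-Hochberg method. The number of arrays limits the precision, with a median SE of 0.24 over all genes. The background level was the 95th percentile of 80 receptor probe sets. Named genes of a list are its up to 4 called members of largest difference, or up to 2 of smallest p. For GFP+ against columnar cells the Notch list was named in full. The closest genes are the 3 of highest r. The fit was checked on simulated data. The 6 members and all lists were chosen with earlier results of these data known. Nothing says whether replicates came from separate animals, so the p-values rest on the spread between these samples and may not cover that between animals. Same-numbered samples of 2 gates had correlations of deviations between -0.07 and 0.30, with 5 of 9 over 0.1, so effects shared by a number may be present. The numbers were not taken as pairs because the labels do not say that a number marks shared animals or a shared day. A replicate block was run as an alternative.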

Additional observations from a re-analysis of the deposited data

How the results depend on the processing

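Each of the 18 differences of the regulators (6 genes in 3 comparisons) was recomputed under 18 alternatives. These were 2 other scalings, a filter on dim genes, 2 treatments of probe sets, eBayes with trend and robust settings, array weights and a replicate block. The 6 arrays of the gates compared and each of the 9 arrays left out made up the rest. Of these differences, 16 kept their side of the threshold under every alternative. With the 6 arrays of the 2 gates alone, Foxn4 in lectin-only against columnar missed the threshold (-1.21, limma adjusted p = 0.0659), which left 1 regulator called lower there. Leaving out 1 array at a time gave -1.59 to -1.02 for this difference and 1 to 2 regulators called lower. For Foxj1 in GFP+ against lectin-only it gave -1.56 to -1.17, and 0 to 1 called lower. Differences that were not called changed sign under some alternative in 5 cases: Rfx2 in all 3 comparisons, Myb in lectin-only against columnar and Ccno in GFP+ against lectin-only. The replicate block changed no call of a regulator; with it Foxj1 in GFP+ against columnar was -3.21 (limma adjusted p = 5.78e-05), axoneme genes called lower in GFP+ against lectin-only numbered 7 against 2, and 1 upstream gene was called higher there. Of 42 counts of called genes in the lists, 12 moved by over 1.5 times or away from 0 under some alternative. Counts over all genes moved by over 1.5 times in lectin-only against columnar (433 lower as deposited, 714 with arrays centred) and in GFP+ against lectin-only. There 517 were lower as deposited, 288 without GFP+ replicate 1 and 310 without lectin-only replicate 3, and 163 were higher as deposited, 259 with arrays centred, 85 without GFP+ replicate 1 and 96 without lectin-only replicate 1. Array weights gave lectin-only replicate 3 a weight of 0.280. No representative probe set of a regulator lay under background on all arrays of a gate, so the bound for dim genes was not applied. Foxj1 lay near background in the GFP+ gate. With arrays centred, 0 of the 3 genes closest to Myb stayed the same, and 2 of 3 did for Foxj1, Rfx3, Ccno and Foxn4. Limits are the 3 arrays per gate, the mixture of cells within a gate, the 1 probe set for Foxj1, Foxn4 and Ccno, and the missing probe sets for Gmnc and Mcidas.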
